A study of Mus musculus with 32 samples.

Results

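The RNA crosslinked near PSD95 in depolarized neurons was compared with the RNA of the same lysates before pulldown. The comparison rested on 8 of the 32 libraries of the series, taken by their titles: 4 streptavidin pulldowns (titled DEP_PSD95_pd) and 4 inputs (DEP_PSD95_in), paired by the replicate number of the title. Both groups were primary cortical neurons from CD-1 mouse embryos, transduced by lentivirus with TurboID fused to PSD95 (TurboID-PSD95). They were kept silent for 2 hours by tetrodotoxin and DL-AP5, then exposed for 1 hour to 55 mM KCl. Both groups then spent 30 minutes in fresh medium with tetrodotoxin, DL-AP5 and biotin. Both also received cycloheximide, an inhibitor of translation elongation, for 2 minutes ahead of 30 minutes of biotin, so no library shows the neurons without it. Neurons of both groups were irradiated with UV before lysis, with a pulse of 400 and a pulse of 200 mJ per square cm. The RNA of the inputs was thus irradiated as well. The input was 15% of the lysate, kept before the beads. As references, the same pulldown-to-input difference was taken in resting neurons with TurboID-PSD95, which got cycloheximide and biotin without KCl, and in depolarized neurons with TurboID lacking a localization signal (Pan-TurboID), with 4 libraries in each group. Silencing is recorded for the depolarized neurons alone, so the states may differ by more than KCl. The construct was switched on by doxycycline and carried rat PSD95 coding sequence between UTRs of PSD95, so the labelled protein was added to the neurons' own PSD95. The labels give no cell type beyond a primary neuronal culture, and markers could not be read because the transcript identifiers carry no gene names here.

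PSD95 is the main scaffold protein of the postsynaptic density, where it anchors glutamate receptors and their signalling partners at excitatory synapses. TurboID is a biotin ligase that tags proteins in its close surroundings, and UV light joins RNA covalently to the proteins it touches, so a streptavidin pulldown keeps RNA bound to proteins that were near the ligase. Dendrites and spines hold messenger RNA far from the cell body, and local translation of such RNA supplies synapses with new protein when activity changes. A pulldown set against its own input shows which transcripts were over- or under-represented on labelled proteins relative to the whole lysate, which does not by itself separate dendritic location from how readily a transcript crosslinks.

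The 8 libraries held between 5410000 and 12200000 estimated reads (to 3 digits) on 51884 transcript models of the mm10 UCSC set. The free-text descriptions of both replicate 2 libraries, and of every other library of replicate 2, name the opposite state from their titles. The titles were followed, and with the states of the descriptions 1439 transcripts were called higher and 1899 lower in the comparison given below. The libraries stood apart by replicate in how many of these reads fell on a single transcript, uc009sgd.1 (3881 nt). Its share in the pulldowns of replicates 1 to 4 was 2.45%, 3.81%, 70.2% and 11.8%, against 9.30%, 27.4%, 78.9% and 17.2% in the inputs. The share was lower in the pulldown in 4 of 4 pairs, while the spread between replicates was far wider than the difference within a pair, and the limma adjusted p was 0.147, while a fit on the 8 libraries alone called it (adjusted p of 0.00774). At least 10 counts were reached by 31360, 28294, 18192 and 23821 transcripts in the pulldowns, against 26607, 23125, 13883 and 25982 in the inputs. At a common depth of 1188557 reads outside the 3 most abundant transcripts, 32403, 29181, 27103 and 27255 transcripts were expected with at least 1 read in the pulldowns, against 28079, 25672, 23916 and 28628 in the inputs. The pulldowns thus held more kinds of transcript in 3 of 4 pairs, and the exact two-sided sign-flip permutation test over the 4 pairs gave p = 0.25, where the smallest p that 4 pairs allow is 0.125. In bulk libraries, a change in the number of contributing cells cannot be told apart from a change in RNA per cell.

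**Figure D1:**
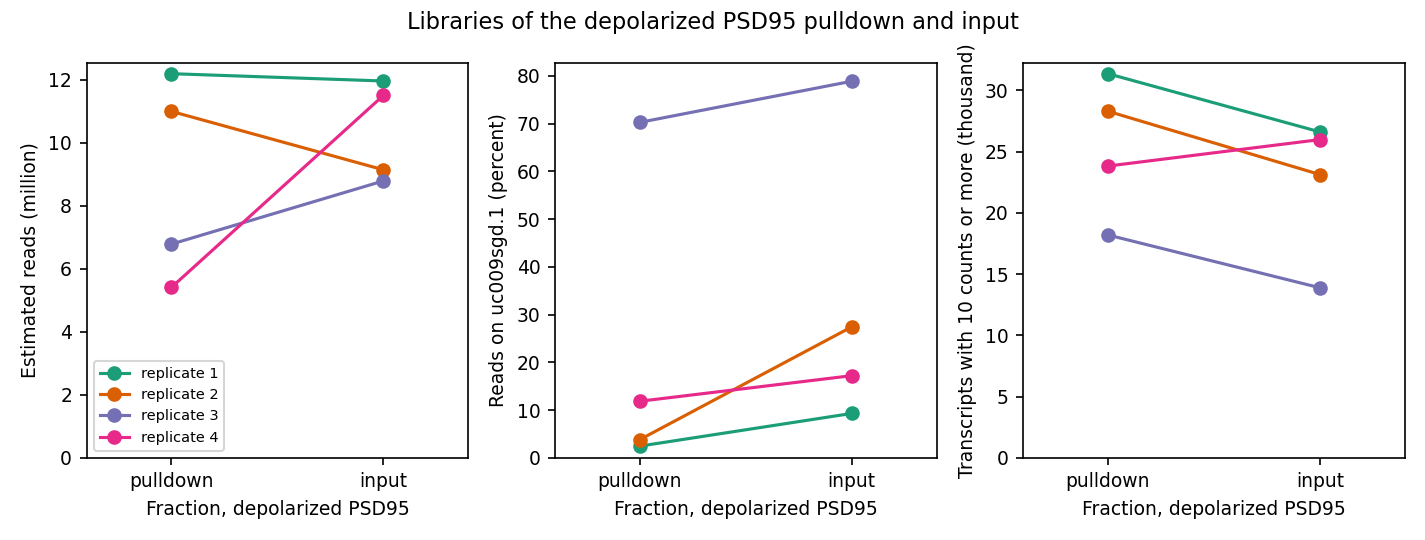
Estimated reads in units of 1000000 (left), percent of reads on uc009sgd.1 (middle) and transcripts, in units of 1000, with at least 10 counts (right) for the depolarized PSD95 pulldowns and inputs. Points are libraries and lines join the pulldown and input of 1 replicate. Replicate 3 carried 70.2% of its pulldown reads and 78.9% of its input reads on uc009sgd.1, and the replicate 3 libraries had the fewest transcripts in both fractions.

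Many transcripts differed between the PSD95 pulldown and its input after depolarization. A limma model of all 32 libraries, with replicate number as a block, called a transcript at an adjusted p under 0.05. Of 34696 transcripts tested, 4433 (12.8%) were called, of which 1975 (5.69%) were higher in the pulldown and 2458 (7.08%) were lower. The transcripts called higher had a median level of 8.002 normalised counts per 1000000 (CPM) over the 8 libraries and a median log2 difference of 1.68. The transcripts called lower were more abundant and had smaller differences, with a median level of 48.6 CPM and a median log2 difference of -0.77. The median level of all transcripts tested was 4.10 CPM. A log2 difference of at least 1 in size was reached by 1684 of the higher and 591 of the lower transcripts, and by 42.4% of all transcripts tested. At low counts only large differences tend to be called. All 4 pairs had the direction of the fit for 1810 of the 1975 higher and 2185 of the 2458 lower transcripts, where 28.3% of all transcripts tested had 1 direction in 4 pairs. The fitted value lay outside the range of its own 4 pair ratios for 79 of the 4433 called transcripts. The model weights libraries unequally and fits 1 set of replicate effects over the 32 libraries. The 4 pulldown values did not overlap the 4 input values for 1471 higher and 1458 lower transcripts, against a share of 14.2% among all transcripts tested. These counts, and those of pairs in 1 direction, use the values that made the calls and are no separate support. Across the 7317 transcripts that averaged 200 counts or more over the 8 libraries, the log2 ratios of 2 replicates correlated with a mean Pearson r of 0.31 (0.257 to 0.392 over 6 pairs of replicates), where transcripts share their libraries and are not independent. The median SD of a transcript's log2 ratio over the 4 replicates was 0.37 in this set. The number of calls rested most on replicate 1: without it, 297 were higher and 606 lower. It was 1360 higher and 1361 lower without the replicate block, and 410 higher and 1107 lower with edgeR. The split between directions also moved with scaling, to 2866 higher and 1559 lower with RLE size factors and to 2211 higher and 1349 lower with DESeq2. Those scalings placed the median log2 difference of all transcripts at 0.29 and 0.34, where it was 0.08 with TMM factors, and values below are given relative to the median of all transcripts where a class is described.

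**Figure D2:**
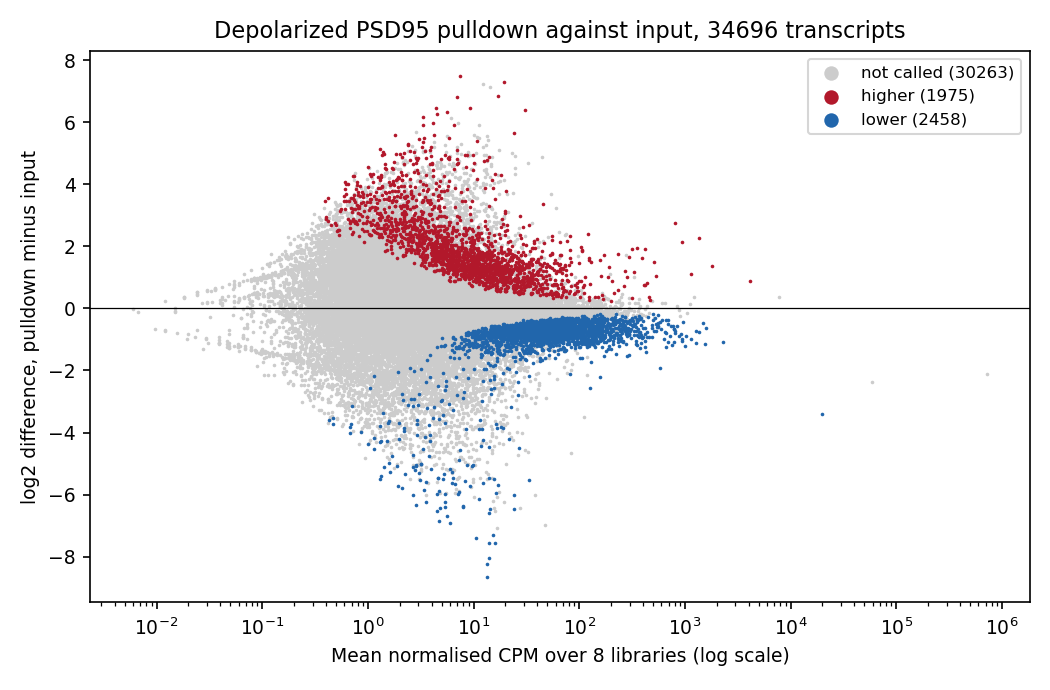
Log2 difference between pulldown and input from the limma fit (vertical axis) against the mean normalised CPM over the 8 depolarized PSD95 libraries (horizontal axis, log scale), with 1 point per transcript tested. The 1975 transcripts called higher lie mostly at lower CPM and larger log2 differences than the 2458 called lower, which lie mostly within about 1 log2 unit of 0.

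The firmest single differences were in abundant transcripts. The transcript uc008gfj.2 (6982 nt), chosen after its values were seen for its small p among higher transcripts, had 6963, 6060, 5690 and 4234 CPM in the pulldowns of replicates 1 to 4, against 2800, 2999, 2197 and 2106 CPM in the inputs. Every pulldown lay above every input. Its log2 difference was 0.89 ± 0.05 (SE), with a limma adjusted p of 1.81e-11. This fitted value lay below each of its pair log2 ratios, which were 1.31, 1.01, 1.37 and 1.01, a mean of 1.18 ± 0.19 (SD, n = 4). The transcript uc008cqz.1 (2507 nt), chosen in the same way among lower transcripts, had 572, 616, 538 and 736 CPM in the pulldowns, against 1121, 912, 1143 and 1342 CPM in the inputs. Here every pulldown lay below every input, with a log2 difference of -0.89 ± 0.04 and a limma adjusted p of 7.2e-13. Its estimated counts were whole numbers in every library, so it shared no fractional reads with another transcript model, whereas those of uc008gfj.2 were not. Another transcript chosen after its values were seen, uc012eno.1 (334 nt, whole counts), was among the 3 most abundant of the series. It had 2807, 1328, 5304 and 8229 CPM in the pulldowns, against 15430, 8630, 56070 and 60940 CPM in the inputs. Its level differed severalfold between replicates in both fractions, and the pulldown was below its own input in 4 of 4 pairs, with a log2 difference of -3.39 ± 0.30 and a limma adjusted p of 1.51e-08. The fitted difference of uc012eno.1 stayed negative and called in all 18 alternatives that tested it, between -4.16 and -2.28. That of uc008cqz.1 did so in all 19, between -1.005 and -0.60, and that of uc008gfj.2 was positive in all 18, between 0.55 and 1.46, with 1 alternative, the fit without the replicate block, leaving it uncalled.

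**Figure D3:**
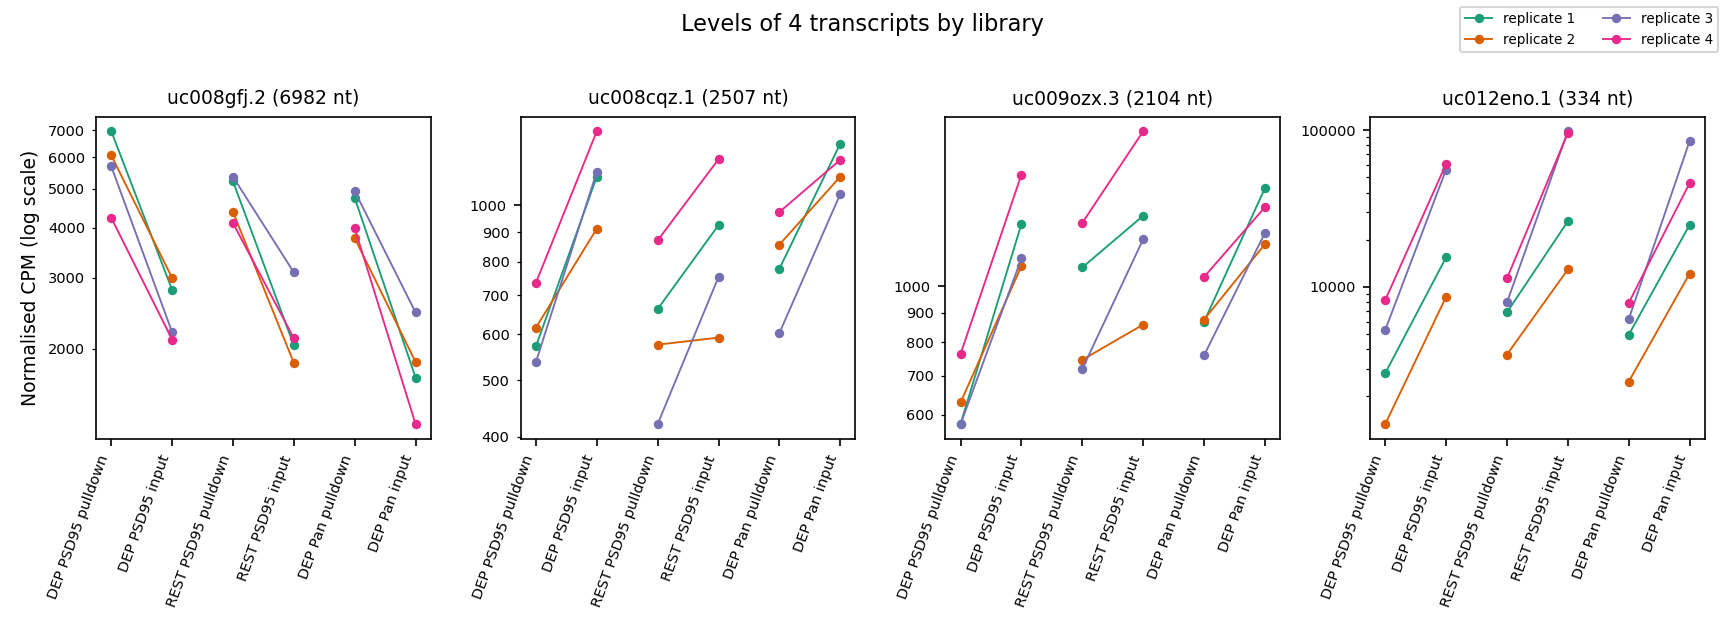
Normalised CPM (vertical axes, log scale) of uc008gfj.2, uc008cqz.1, uc009ozx.3 and uc012eno.1 in the pulldown and input libraries of the depolarized PSD95, resting PSD95 and depolarized Pan groups. Points are libraries and lines join the pulldown and input of 1 replicate. In depolarized PSD95 libraries the pulldowns of uc008gfj.2 (4234 to 6963 CPM) lie above all inputs, and those of uc008cqz.1 (538 to 736 CPM) lie below all inputs.

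Larger fitted differences belonged to transcripts that came close to absence in one fraction. Among called transcripts with a mean of at least 20 CPM and 1 direction in 4 of 4 pairs, the largest positive difference was that of uc008wnw.2 (6530 nt). It had 56.9, 60.9, 28.0 and 91.2 CPM in the pulldowns, against 0, 1.63, 4.70 and 2.03 CPM in the inputs, with no overlap between the fractions. The next was uc007cxc.1 (3445 nt), with 45.0, 48.5, 41.0 and 41.7 CPM in the pulldowns, against 0, 0, 3.66 and 14.0 CPM in the inputs. The pulldown levels of uc007cxc.1 were within a narrow band, and its inputs were at 0 in replicates 1 and 2. In the other direction, uc009ltn.2 (5705 nt) had 0, 4.72, 0 and 11.9 CPM in the pulldowns, against 56.1, 53.1, 12.02 and 55.7 CPM in the inputs. The lowest input of uc009ltn.2, in replicate 3, was just above its highest pulldown. The transcript uc007nuy.2 (6023 nt) had 0.096, 1.82, 49.4 and 0.476 CPM in the pulldowns, against 46.5, 32.3, 90.4 and 45.1 CPM in the inputs, and its pulldown of replicate 3 lay inside the range of the inputs. The limma adjusted p was 0.0058 for uc008wnw.2, 0.00468 for uc007cxc.1, 0.00407 for uc009ltn.2 and 0.0151 for uc007nuy.2. None of the 4 had whole estimated counts, so their reads were divided with other transcript models, and a fold against values near 0 depends on the prior count of the fit. Each lost its call with edgeR and without replicate 1. Of 18 alternatives, uc008wnw.2 lost its call in 4, uc007cxc.1 in 5, uc009ltn.2 in 2 and uc007nuy.2 in 8, with DESeq2 among the 8 (adjusted p of 0.357). In the limma fit on the 8 libraries alone, uc007cxc.1 was at 2.85 (adjusted p of 0.123) and uc007nuy.2 at -2.50 (adjusted p of 0.154). The adjusted p with edgeR was 0.0641, 0.12, 0.0783 and 0.517 in the order given.

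The direction of the difference followed the abundance of a transcript in inputs. Abundance was read from the depolarized Pan inputs, which are in neither arm of the PSD95 comparison. They are the same kind of fraction as the PSD95 inputs, so a transcript over-represented in inputs is placed towards the higher classes. Part of the pattern can come from that choice, and classes set by pulldown levels were not tried. In 1 of those 4 inputs, replicate 4, uc009sgd.1 took 84.8% of the reads. Of the 1242 transcripts at 100 CPM or more there, 779 (62.7%) were lower in the PSD95 pulldown and 33 (2.66%) were higher. Of the 9092 at 10 to under 100 CPM, 1533 (16.9%) were lower and 424 (4.66%) higher. Below that the balance turned, with 119 lower and 1150 higher of the 14529 transcripts at 1 to under 10 CPM, and 27 lower and 368 higher of the 9833 under 1 CPM. Calls are easier to reach at high counts, so the median difference was also taken per replicate, as the log2 ratio of pulldown over input (with 2 CPM added to each) minus the median ratio of all transcripts tested. For transcripts of 100 CPM or more it was -0.61, -0.35, -0.56 and -0.55 in replicates 1 to 4, a mean of -0.52 ± 0.11 (SD, n = 4). It was below 0 in every replicate, at the exact sign-flip permutation limit of p = 0.125. At 10 to under 100 CPM it was -0.27 ± 0.10, and at 1 to under 10 CPM it was 0.09 ± 0.08. Below 10 CPM the added 2 CPM holds this ratio near 0, and the medians of the fitted log2 differences were 0.37 at 1 to under 10 CPM and 0.69 under 1 CPM. More of the abundant transcripts were lower than higher in all 19 alternatives, with 30.3% to 65.2% lower and 1.37% to 5.96% higher, and more of those under 10 CPM were higher than lower in all 19. Without replicate 1 the abundant class had 376 lower and 18 higher, and without the 6 libraries of the series in which uc009sgd.1 took over 50% of reads it had 662 lower and 27 higher. Abundant transcripts were also lower in the reference comparisons. The class median was -0.37 ± 0.09 at rest, with 464 lower (4.1% of all transcripts were called lower there) and 43 higher (3.14%), and -0.42 ± 0.11 with Pan, whose own inputs set the classes, with 666 lower (4.45% of all) and 20 higher (3.59%). The depolarized PSD95 median was below that at rest in 4 of 4 replicates, by a difference of -0.15 ± 0.07, and below that with Pan in 4 of 4, by -0.10 ± 0.01. Both had an exact sign-flip permutation p of 0.125, and 0.357 after Benjamini-Hochberg adjustment over the 20 class comparisons made, so neither difference passed a test.

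**Figure D4:**
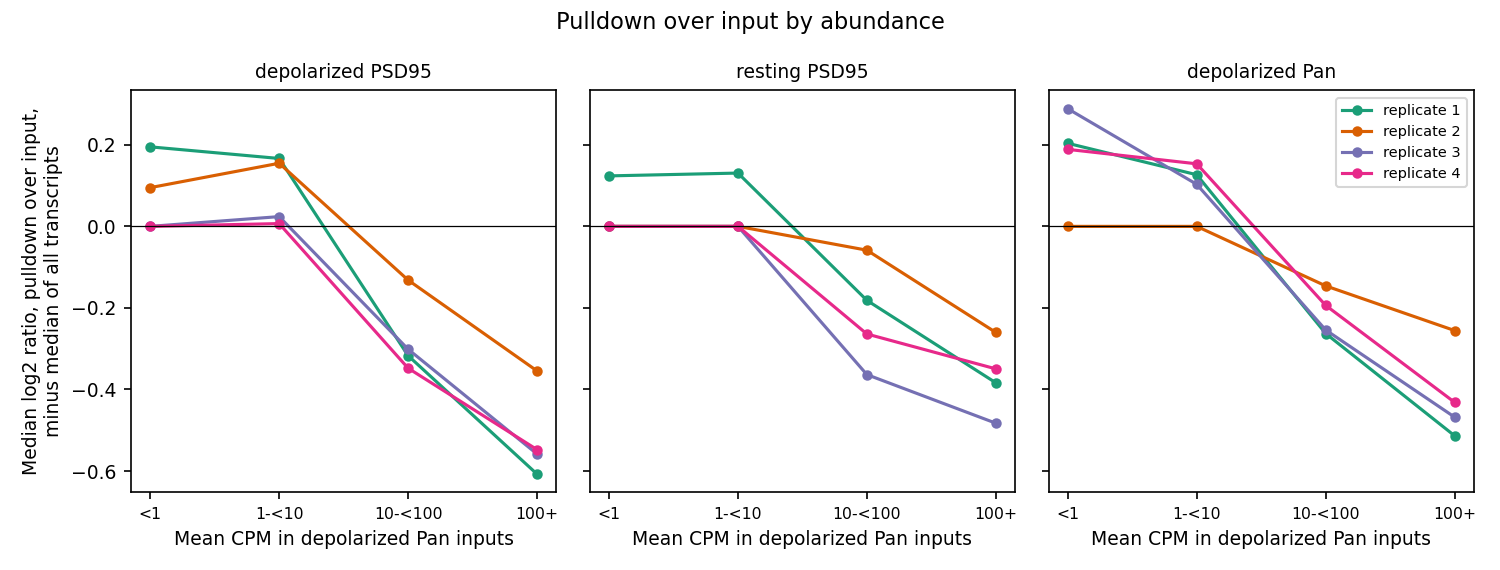
Median log2 ratio of pulldown over input, minus the median of all 34696 transcripts tested in that replicate (vertical axes), by mean CPM in the depolarized Pan inputs (horizontal axes, 4 classes), for depolarized PSD95 (left), resting PSD95 (middle) and depolarized Pan (right). Each line is 1 replicate. With depolarized PSD95 the class of 100 CPM or more lies between -0.61 and -0.35 in the 4 replicates.

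The 33 abundant transcripts that were higher in the pulldown went against their class. They were long, with a median of 5864 nt (1503 to 83437 nt), and none fell between 300 and 1000 nt. Their log2 differences ran from 0.24 to 2.74 with a median of 0.88, 32 had the same direction in 4 of 4 pairs, and in 21 the fractions did not overlap. Among all transcripts tested, 28.3% had the direction of the fit in 4 of 4 pairs and 14.2% had no overlap. Such counts use the values that made the calls. Of these 33, 22 were also called higher in the resting PSD95 pulldown and 18 in the depolarized Pan pulldown, with median log2 differences of 0.85 and 0.91 there. Of all 1242 abundant transcripts, 3.46% and 1.61% were called higher there. Only 1 had whole estimated counts, so most of their reads were divided with other transcript models. Of the 779 abundant transcripts called lower, which had a median length of 3623 nt and a median log2 difference of -0.70, 718 had 1 direction in 4 of 4 pairs and in 486 the fractions did not overlap. Of the 779, 448 were also called lower at rest and 604 with Pan, where 37.4% and 53.6% of the 1242 abundant transcripts were.

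Transcript length was the other measured property along which the pulldown differed from the input. Among the 7317 transcripts averaging 200 counts or more, 226 of the 301 between 300 and under 1000 nt (75.1%) were lower in the pulldown and 4 were higher, where 28.1% of the 7317 were called lower and 7.13% higher. Messenger RNAs of this length commonly encode small proteins, but which ones these are cannot be read from the identifiers. Relative to the median of all 7317 in the same replicate, the median log2 ratio of this class was -0.60, -0.45, -0.56 and -0.31 in replicates 1 to 4, a mean of -0.48 ± 0.13 (SD, n = 4). The class of 1000 to under 2000 nt was lower as well, at -0.19 ± 0.05, with 426 of 933 called lower. The longer classes lay just above 0, at 0.03 ± 0.01 for 2000 to under 4000 nt, 0.09 ± 0.03 for 4000 to under 8000 nt and 0.05 ± 0.06 for 8000 nt or more. The last of these was below 0 in replicate 4. Very short models went the other way. The 9 abundant ones under 300 nt had relative medians of 1.32, 1.73, 2.18 and 2.81, a mean of 2.01 ± 0.64, with 6 higher and 1 lower. Over all abundances, 50 of the 252 tested under 300 nt were higher, with a median log2 difference of 2.25, and 1 was lower. Of these 50, 37 had whole counts, 24 were also higher at rest and 22 with Pan, where 14.3% and 11.1% of the 252 were called higher. Models this short include many noncoding RNAs and are shorter than or close to a sequenced fragment, so their estimated counts depend on fragment selection in the library, whose part was not tested. With 4 pairs no class could pass 0.05. The sign-flip permutation p was at its limit of 0.125 in every class but the longest, where it was 0.25. The class of 300 to under 1000 nt had more lower than higher calls in all 19 alternatives, with 24.3% to 77.7% lower. Without replicate 1 it had 73 lower and 1 higher.

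**Figure D5:**
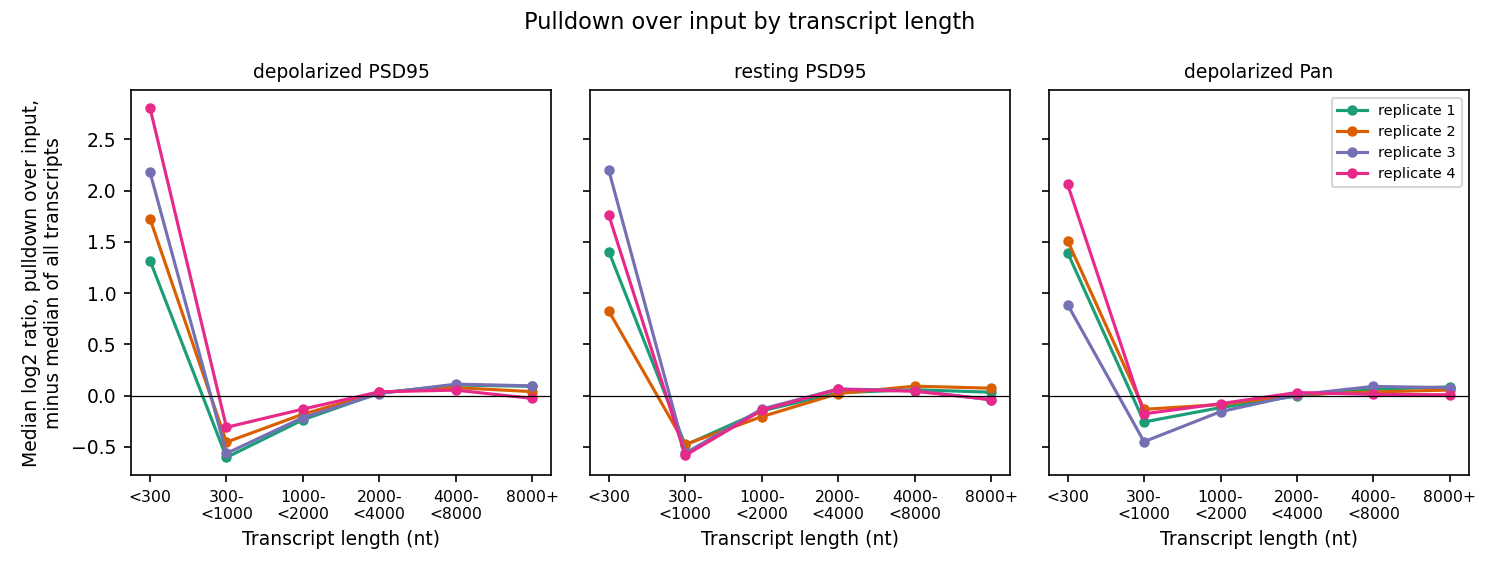
Median log2 ratio of pulldown over input, minus the median in that replicate of all 7317 transcripts averaging 200 counts or more (vertical axes), by transcript length in nt (horizontal axes, 6 classes), for depolarized PSD95 (left), resting PSD95 (middle) and depolarized Pan (right). Each line is 1 replicate. The class of 300 to under 1000 nt lies below 0 in every replicate of the 3 comparisons, and the class under 300 nt, with 9 transcripts, above 0.

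The same shape appeared in the reference comparisons. For 300 to under 1000 nt the mean was -0.53 ± 0.05 in resting PSD95 and -0.25 ± 0.14 in depolarized Pan (SD, n = 4 each). The depolarized PSD95 value differed from the resting one by 0.04 ± 0.17, with both signs among the replicates. It was below the Pan value in 4 of 4 replicates, by -0.35, -0.32, -0.11 and -0.13, a mean of -0.23 ± 0.12, with an exact sign-flip permutation p of 0.125 and an adjusted p of 0.357 over the 20 comparisons. The 1000 to under 2000 nt class was also below its Pan value in 4 of 4 replicates, by -0.08 ± 0.03, and the classes of 2000 to under 4000 nt and 4000 to under 8000 nt above it in 4 of 4, by 0.02 ± 0.01 and 0.04 ± 0.01, all with the same p. Across transcripts the Spearman correlation between length and log2 ratio was weak, at 0.215, 0.135, 0.150 and 0.064 in the 4 replicates, with the shortest class and the next one on opposite sides of 0.

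Length was then examined inside abundance classes, because abundant transcripts in these libraries tended to be longer, with median lengths of 4256 nt at 100 CPM or more and 2407 nt under 1 CPM. Inside the class of 100 CPM or more, 67 of 70 transcripts of 300 to under 1000 nt (95.7%) were lower and none was higher. The share of lower transcripts fell along the length classes to 120 of 138 (87.0%) for 1000 to under 2000 nt, 243 of 362 (67.1%) for 2000 to under 4000 nt, 241 of 444 (54.3%) for 4000 to under 8000 nt and 108 of 225 (48%) for 8000 nt or more. The medians of the fitted log2 differences followed the same order, at -1.01, -0.78, -0.54, -0.45 and -0.38. At 10 to under 100 CPM the shares of lower transcripts were 52.6%, 25.9%, 14.9%, 10.8% and 9.67% over the same classes. The medians of the fitted log2 differences were -0.76, -0.47, -0.29, -0.21 and -0.25 there. Relative to its abundance class, the 300 to under 1000 nt class was at -0.45 ± 0.13 in the upper and -0.41 ± 0.11 in the lower of these abundance classes (SD, n = 4). Below 10 CPM the added 2 CPM compresses this relative ratio, so it cannot show whether the order held there. For 300 to under 1000 nt it was -0.10 ± 0.11 at 1 to under 10 CPM and -0.01 ± 0.04 under 1 CPM. The medians of the fitted log2 differences at 1 to under 10 CPM were -0.05, 0.25, 0.50, 0.33 and 0.31 over the same classes. Under 1 CPM these medians were 0.59, 0.73, 0.76, 0.34 and 0.32. At 1 to under 10 CPM, 30 of 79 transcripts under 300 nt were higher and none was lower. Among transcripts of 10 CPM or more, length and abundance thus each went with the difference while the other was held within a class.

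A smaller set of calls did not depend on any 1 choice. Of the 1975 higher transcripts, 181 were called higher in every alternative that tested them, and of the 2458 lower ones, 445 were called lower in every one. The 181 had a median log2 difference of 1.49, and the 445 a median of -0.90. Without each replicate in turn, 214 higher and 531 lower transcripts stayed called in all 4 fits. Of the 181, 161 were also called higher in the resting PSD95 pulldown and 161 in the depolarized Pan pulldown, where 3.14% and 3.59% of all transcripts were. Of the 445, 387 were called lower at rest and 383 with Pan, where 4.1% and 4.45% of all were. All 3 comparisons came from 1 model. The alternative with the states of the descriptions counts the resting replicate 2 libraries as depolarized, so resting libraries helped to choose these lists. The shares over all transcripts include many scarce ones, for which calls are harder to reach. Of these 445, 64 were 300 to under 1000 nt long.

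Whether the pulldown-to-input difference changed between depolarized and resting neurons was tested by the interaction with state. The states may also differ in silencing. Of 34696 transcripts, 8 (0.0231%) were called by limma, all with a negative fitted difference between depolarization and rest, of -0.64 to -0.38 on the log2 scale, and 2337 were at an unadjusted p under 0.05. The ratio of pulldown to input was lower after depolarization in 4 of 4 replicates for 5 of the 8, and for 4 of the 8 the fitted value lay outside the range of its 4 replicates. For 1 of them, uc008gfj.2, the fitted -0.38 had no counterpart in the CPM ratios, whose depolarized minus resting differences were -0.04, -0.23, 0.58 and 0.05, a mean of 0.09 ± 0.35 (SD, n = 4). Of the 8, 5 were called lower in the depolarized pulldown than in its input and 1 higher, and at rest 3 were called lower and 3 higher. The transcript with the smallest p, uc009ozx.3 (2104 nt), had 579, 630, 578 and 764 CPM in the depolarized pulldowns, against 1281, 1083, 1117 and 1558 CPM in their inputs. In resting neurons it had 1077, 746, 719 and 1286 CPM in the pulldowns, against 1323, 858, 1205 and 1851 CPM in the inputs. It was below its input in 8 of 8 pairs, and the input means were close, at 1260 ± 217 CPM depolarized and 1309 ± 411 CPM resting (SD, n = 4 each), against pulldown means of 638 ± 87.7 CPM and 957 ± 273 CPM. Its log2 difference was -1.07 ± 0.06 (SE) depolarized and -0.42 ± 0.04 resting, and the interaction was -0.64 ± 0.08 with a limma adjusted p of 0.000327. The second, uc009gix.3 (2887 nt), had 182, 155, 114 and 171 CPM in the depolarized pulldowns, against 289, 202, 190 and 263 CPM in the inputs. At rest it had 249, 165, 120 and 174 CPM in the pulldowns, against 253, 189, 121 and 198 CPM in the inputs. For uc009gix.3 each resting pulldown thus lay below its own input, by less than after depolarization in 4 of 4 replicates, while the fitted resting difference was 0.00 ± 0.08. Its interaction was -0.64 ± 0.11 with a limma adjusted p of 0.0362. The call of uc009gix.3 was lost in 12 of 16 alternatives, without each of replicates 1 to 4 among them, and that of uc009ozx.3 in 5 of 16. With edgeR both had an adjusted p of 1, and the interaction of uc009ozx.3 was -0.19 without replicate 1. None was called with a higher difference after depolarization. The one with the smallest p in that direction, uc007nbs.2 (5581 nt), did not pass, at a limma adjusted p of 0.12. It had 3.36, 17.2, 21.3 and 3.57 CPM in the depolarized pulldowns and was at 0 in all resting PSD95 pulldowns. In its inputs it had 0, 0, 0 and 1.09 CPM depolarized and 4.70, 0, 6.88 and 1.33 CPM resting. The number of calls depended on the tool and the libraries, with 0 from edgeR, 481 from DESeq2, and 0, 1, 2 and 5 from limma without replicates 1 to 4 in turn.

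The interaction with construct asks whether the PSD95 pulldown differed from its input otherwise than the Pan pulldown did after depolarization. No transcript was called by limma (0%). An unadjusted p under 0.05 was reached by 2249, and edgeR called 1 and DESeq2 561. The smallest p was that of uc029six.1 (325 nt), with a limma adjusted p of 0.0761. It had 580, 293, 308 and 837 CPM in the depolarized PSD95 pulldowns, against 1376, 508, 201 and 1190 CPM in their inputs. With Pan it had 3200, 1084, 276 and 1408 CPM in the pulldowns, against 3646, 665, 343 and 873 CPM in the inputs. Neither contrast had 1 direction in all its pairs, and with RLE size factors the interaction changed sign, to 0.43. It passed in 3 of 17 alternatives, with the 3 most abundant transcripts removed (limma adjusted p of 0.00113), with the length correction (0.00633) and without replicate 4 (2e-14). In the positive direction, uc012fkf.1 (3804 nt) had the smallest p and a limma adjusted p of 0.153, with 9.69, 21.0, 19.0 and 6.31 CPM in the PSD95 pulldowns, against 0, 0, 0 and 0.156 CPM in the inputs. With Pan it was at 0 in 3 of 4 pulldowns and at 15.6 CPM in the fourth, against 13.8, 12.6, 13.6 and 10.3 CPM in the inputs.

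The transcripts called in the depolarized PSD95 comparison were often called in the reference comparisons, which used none of the same libraries but shared the replicate numbers and 1 model. At rest 2515 transcripts (7.25%) were called, and with depolarized Pan 2791 (8.04%). Of the 1975 higher transcripts, 588 were also higher at rest, which is 29.8% of the depolarized list and 53.9% of the 1091 resting ones. With Pan, 708 were shared, or 35.8% and 56.8% of the lists. The overlap was larger among lower transcripts, with 1119 shared with rest, or 45.5% of the depolarized and 78.6% of the 1424 resting ones. With Pan 1209 were shared, or 49.2% and 78.3%. At most 1 transcript of a list was called in the opposite direction in each reference comparison. In all, 352 higher and 724 lower transcripts were called in the 3 comparisons, and 1031 higher and 854 lower ones in depolarized PSD95 alone, which does not show that they differed between the comparisons.

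Transcripts that differed between depolarized and resting Pan inputs, here called changed by KCl, were followed into the PSD95 pulldown, though the states may also differ in silencing. They were taken from the Pan inputs, in which 901 transcripts (2.6%) differed between depolarized and resting neurons, 629 (1.81%) rising and 272 (0.784%) falling. No PSD95 library was in either arm of that contrast. The model was fitted on all 32 libraries, so PSD95 libraries did enter its filter, scaling and estimate of spread. Depolarization is known to induce activity-regulated genes within an hour, among them transcription factors and synaptic proteins, but the identifiers do not show which of them these are. Of the 629 that rose, 246 (39.1%) were lower in the depolarized PSD95 pulldown than in its input and 43 (6.84%) were higher, where 7.08% and 5.69% of all transcripts were. Their median log2 difference was -0.36, beside 0.08 for all transcripts tested, and relative to all transcripts it was -0.40, -0.10, -0.30 and -0.29 per replicate. At rest 143 of the same 629 (22.7%) were lower and 21 (3.34%) higher, where 4.1% and 3.14% of all transcripts were. Their median at rest was -0.09, beside 0.15 for all transcripts tested. The relative median was lower after depolarization than at rest in 4 of 4 replicates, by a mean of -0.12 ± 0.08 (SD, n = 4), with an exact sign-flip permutation p of 0.125, the smallest possible. The list of rising transcripts held 77 members without replicate 1, 351 without replicate 2, 114 without replicate 3 and 354 without replicate 4, and its relative median was then -0.45 to -0.29. KCl-induced transcripts were more abundant than the rest, with a median of 27.5 CPM against 4.10 CPM. Inside abundance classes of the Pan inputs, 161 of 189 (85.2%) were lower at 100 CPM or more, against 62.7% of the class, and 83 of 230 (36.1%) at 10 to under 100 CPM, against 16.9%. They were also shorter than their class, with median lengths of 2333 nt against 4256 nt at 100 CPM or more and 2520 nt against 3395 nt at 10 to under 100 CPM. With length held as well, at 2000 to under 4000 nt, 61 of 72 (84.7%) were lower at 100 CPM or more, against 182 of 290 others (62.8%), and 25 of 87 (28.7%) at 10 to under 100 CPM, against 512 of 3507 others (14.6%). At 300 to under 1000 nt and 100 CPM or more the shares were 27 of 28 and 40 of 42. None of these differences in share was tested. Depolarized Pan inputs both chose the list and set these classes. Of the 272 that fell with KCl, 59 (21.7%) were lower in the pulldown and 27 (9.93%) higher, with a median log2 difference of -0.13. At 100 CPM or more 24 of 38 of them (63.2%) were lower, near the 62.7% of the class, and at 10 to under 100 CPM 33 of 135 (24.4%).

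Single transcripts of earlier interest were read in the same libraries. The KCl-responsive transcript uc007mqv.1 (5284 nt) had 128, 91.7, 146 and 130 CPM in the depolarized pulldowns, against 126, 91.7, 141 and 109 CPM in the inputs. The pulldown thus followed the input from replicate to replicate, and the log2 difference was 0.02 ± 0.08 (SE) with a limma adjusted p of 0.896. uc008ezn.1 (10480 nt), which falls with KCl, had 31.1, 34.0, 35.7 and 35.0 CPM in the pulldowns, against 26.6, 22.8, 38.7 and 42.6 CPM in the inputs, and the direction differed between pairs. Its log2 difference was 0.06 ± 0.16 after depolarization, not past the threshold, and 0.45 ± 0.11 at rest (limma adjusted p of 0.0113), and the interaction of -0.40 ± 0.20 did not pass (adjusted p of 0.754). uc007jtp.2 (3326 nt), the transcript highest with the PSD95 construct, had 731, 1554, 2601 and 1258 CPM in the pulldowns, against 715, 971, 1698 and 272 CPM in the inputs. It was higher in the pulldown in 4 of 4 pairs, by an amount that ran from almost none in replicate 1 to severalfold in replicate 4, and its log2 difference of 0.37 ± 0.24 had a limma adjusted p of 0.36. It passed in 3 of 18 alternatives, at 1.66 without replicate 1, 1.18 with no filter (adjusted p of 1.1e-07) and 1.04 with a filter at a mean of 5 CPM (adjusted p of 0.0132). The construct carries PSD95 sequence, and whether reads of the construct are counted under uc007jtp.2 was not tested. In depolarized Pan cultures the same transcript was at 155 ± 37.6 CPM in the pulldowns and 239 ± 67.2 CPM in the inputs (SD, n = 4 each).

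Presence in 1 fraction alone was rare. Of 51884 transcripts, 9 had 0 counts in all 4 inputs and at least 10 in each pulldown, with 10 to 355 counts per library, and 8 had the reverse, with 10 to 635 counts in the inputs. A count of 0 allows up to 3 counts per library by counting error alone. None of these 17 had whole estimated counts. By limma, 7 of the 9 and 8 of the 8 were called, where 12.8% of all transcripts tested were. The values that chose the 17 are those tested, so these calls are no separate evidence. Of the 9, 2 were also at 0 in all resting PSD95 inputs and 1 in all depolarized Pan inputs, and of the 8, 1 was at 0 in all resting PSD95 pulldowns and 1 in all depolarized Pan pulldowns.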

How the data were processed

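RNA was measured by stranded sequencing after ribosomal RNA depletion, from about 100 ng per library. The authors quantified reads with salmon on mm10 UCSC transcript models. Each file deposited by the authors holds expected counts from salmon, in which reads matching several models are divided among them, and TPM values that the authors' tool scaled per library. The version was not given in the sources used here, and the processing notes also name DESeq and limma. Expected counts were rounded and tested, and TPM was not tested. Of 51884 models, 8856 were whole to within 0.001 in all libraries. The identifiers matched 0 entries of the gene tables used here, and no gene list, marker or sequence is given for that reason.

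Members, lists and tests were chosen with earlier results of these data known. The test was limma 3.58.1 (voomWithQualityWeights, R 4.3.3) with TMM factors and filterByExpr of edgeR 4.0.16, group and replicate number as terms, all 32 libraries and Benjamini-Hochberg adjustment. Filter, weights and terms follow the study's methods. Normalised CPM are counts per 1000000 of TMM-scaled library size. Libraries of a group are separate biological replicates in the study's methods, and p-values measure the spread between these libraries. No 2 files were identical among 48 replicate pairs. As a check of pairing, pulldown and input deviations from their group means correlated by 0.10 to 0.26 for equal numbers (mean 0.19). In 3 of 4 pulldowns the input of the same number correlated best, and the block was kept. The mean of -0.06 for unequal numbers is largely set by centring on the group means and is no separate evidence. Named transcripts were called, had at least 20 CPM, a log2 difference of at least 0.5 and 1 direction in 4 of 4 pairs, and were the 2 largest per direction and comparison, or the smallest p where none was called. To these, 4 were added from earlier results and 3 after their values were seen. Classes used an exact two-sided sign-flip permutation test over replicates, and 2 CPM was added to each level. Alternatives were edgeR, DESeq2 1.42.0, RLE factors, other filters, no weights, no block, fewer libraries, a length correction and the states of the descriptions. Counts per class in each of these, length within abundance and the common depth were added after seeing the data. Tests were tried on simulated data. Plots used Python 3.11.15 and matplotlib 3.10.9.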

Additional observations from a re-analysis of the deposited data

Results flagged for a closer look

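Chance puts about 1 in 20 groups of 4 past the limit used here for a library far from the other three, and 5 of 47 groups passed it. That rate does not hold for groups with values at 0, nor for transcripts named for large differences. The replicate 3 pulldown held 70.2% of its reads on uc009sgd.1, far from 2.45%, 3.81% and 11.8% in the other pulldowns. uc007nuy.2 had 49.4 CPM in the pulldown of that replicate and at most 1.82 CPM in the other pulldowns, and without replicate 3 its limma adjusted p was 0.113. uc009ltn.2 had 12.02 CPM in the replicate 3 input, against 53.1 to 56.1 CPM in the others. uc007nbs.2 had 1.09 CPM and uc012fkf.1 had 0.156 CPM (2 counts) in the replicate 4 input, while the other 3 inputs were at 0 for both. With 3 inputs at 0 any count in the remaining input passes the limit, so both flags were fixed in advance.

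The difference between the states passed the limma interaction test for 8 transcripts. Among them were uc009ozx.3, with a log2 change of -0.64, and uc009gix.3, likewise of -0.64, each lower in 4 of 4 replicates. In 5 of the 8 the change had that direction in 4 of 4 replicates.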

How the results depend on the processing

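More transcripts of 100 CPM or more, and of 300 to under 1000 nt, were lower than higher in the depolarized PSD95 pulldown in all 19 alternatives. The count of 4433 calls stayed within 1.5 times in 13 of 19 and was 1517 with edgeR, 2721 without the replicate block and 1088 of 4048 with whole-number transcripts only. It ran from 903 to 3116 without 1 replicate each, lowest without replicate 1. The cause of these and the following differences was not tested, except that the last and those without a replicate enter fewer transcripts or libraries.

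For the interaction with state, limma called 8 transcripts. The count was 0 with edgeR, without the replicate block, with whole-number transcripts and with the states of the descriptions. It was 1 without the 3 most abundant transcripts, without quality weights and with a filter at a mean of 5 CPM, 2 with the length correction, 3 without the libraries over 50% uc009sgd.1, 46 with no filter and 481 with DESeq2. Without 1 replicate each it ran from 0 to 5. For the interaction with construct, limma called 0. The count was 1 with edgeR, RLE factors, the 3 most abundant transcripts removed, the 16 depolarized libraries alone, whole-number transcripts and the states of the descriptions, 2 with the length correction, 5 without the libraries over 50% uc009sgd.1, 29 with no filter and 561 with DESeq2. Without 1 replicate each it ran from 0 to 4.

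With the count minimum at 50 in place of 200, the relative medians by length, from under 300 nt upwards, were 1.30 under 300 nt, -0.11 for 1000 to under 2000 nt, 0.074 for 2000 to under 4000 nt, 0.036 for 4000 to under 8000 nt and -0.081 for 8000 nt or more, a change of sign in the last, and the mean correlation with length was 0.049. With a minimum of 1000 they were 1.23 under 300 nt, -0.31 for 1000 to under 2000 nt, -0.0059 for 2000 to under 4000 nt, a change of sign, and 0.11 for 8000 nt or more, with a correlation of 0.29. With whole-number transcripts they were -0.12, 0.075, 0.15 and 0.20 for the classes from 1000 nt upwards, with a correlation of 0.31. The class of 300 to under 1000 nt stayed between -0.54 and -0.38. Without 1 replicate each, transcripts that rose with KCl were at -0.45 to -0.29 and those that fell at -0.29 to -0.19. The list of rising transcripts then held 77 to 354 members.

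Among named transcripts, uc029six.1 changed sign against Pan with RLE factors (0.43), uc009sgd.1 without the replicate block (0.40) and uc007mqv.1 with no filter (-0.0050). The blocked fit is the one reported. Besides the counts above, the fit without the block lost uc008gfj.2, uc009ozx.3 and uc009gix.3. Libraries with few reads outside uc009sgd.1 limit what can be seen of scarce transcripts, down to 1188675 reads in the replicate 3 input.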
